A study of Papio anubis with 24 samples.

Results

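In the DNA methylation profile of baboon embryonic stem cells (ESC), 1195 places on the numbered autosomes held 5 or more enriched sites in close succession. These clusters were found by sorting the ESC peaks of each autosome by start and chaining neighbours whenever the next start lay 2000 bp or less beyond the previous end. They took in 7580 of the 151630 autosomal ESC peaks (5.00%), out of 166961 ESC peaks in all. The members were therefore chosen by the positions of the ESC peaks, and their number, spacing and ESC values are given as a description without a test. Whether induced pluripotent stem cells (iPSC) carried peaks in the same spans was not used to choose them. For this comparison there were 40590 autosomal iPSC peaks, of which 2457 overlapped the span of a cluster.

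The study profiled olive baboon (Papio anubis) cells with MeDIP-seq, in which sheared DNA is pulled down with an antibody against 5-methylcytosine and sequenced beside untreated input DNA. ESC came from the lines ESC_B4 and ESC_B15, and iPSC from the lines iPSC_160-2 and iPSC_M14939#3, all grown on feeder cells in a medium made for human pluripotent cells, with 3 MeDIP and 3 input libraries per line. Of the 24 libraries, 5 with titles of the line iPSC_M14939#3 have a line field ending in a different number. The data used here are 1 peak list per cell type, so values per library or line, and with them replicate errors and tests of ESC against iPSC, cannot be given, and cell type cannot be told apart from line. Any DNA of the feeder cells cannot be told apart from that of the stem cells. Ranges in brackets after a percentage are exact Clopper-Pearson 95% intervals. They describe counting error alone, as if peaks were independent of each other, and neighbours in a cluster are not.

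DNA methylation in mammals sits mainly on cytosines followed by guanine. The antibody captures a fragment better the more methylated cytosines it carries, so MeDIP peaks favour stretches where methylated CpG sites lie close together. Pluripotent cells methylate most CpG sites outside active promoters and enhancers. A run of neighbouring peaks can arise where short methylated, CpG-rich pieces follow each other over a few kb. The CpG content of the clusters was not measured. Genes, repeats and CpG islands at the clusters are not named, since no label or file header used here states the genome build. Positions are those of the lists, counted from 1.

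Most clusters were small. Of the 1195, 581 held exactly 5 ESC peaks, 284 held 6, 132 held 7, 107 held 8 to 9, 76 held 10 to 14 and 15 held 15 or more. The median span was 5811 bp (interquartile range 4780 to 7316 bp), the shortest 2229 bp and the longest 30204 bp. Together the spans came to 7.70 Mb, or 0.297% of the autosomal length seen in the lists. ESC peaks filled 28.1% of these spans, against 1.44% of the autosomes. The fill ranged from 14.2 to 80.1% over the clusters. The usual cluster was thus a row of short peaks separated by longer gaps without a called ESC peak, and not a continuous block of peaks. Signal within the gaps was not measured.

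On either side of the limits of 5 peaks and 2000 bp, the ESC values were close. There were 1419 chains of 4 ESC peaks, just outside the rule, with a median fold enrichment of 2.08, against 2.07 for the 581 chains of 5 just inside it. Fold enrichment here is the authors' ratio of the fragment pileup at a peak's summit to its local background. Gaps between neighbouring autosomal peaks measured over 1900 and up to 2000 bp 1316 times, and over 2000 and up to 2100 bp 1210 times. The median fold of the peak after the gap was 2.22 in the former and 2.19 in the latter.

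The largest cluster lay on chromosome 4 from 163148189 to 163178392, a span of 30.2 kb with 36 ESC peaks. The folds of its ESC peaks had a median of 2.30 (1.44 to 3.00), and its summits were a median of 739 bp apart. It held 22 iPSC peaks with a median fold of 2.61 (1.92 to 3.22), and 21 of its 36 ESC peaks overlapped one. At the ESC peak with the highest fold of this cluster, 163166803 to 163167068 (3.00), an iPSC peak at 163166858 to 163167048 had a fold of 2.54. The next ESC peak upstream, 163166420 to 163166694, had a fold of 2.49 and no iPSC peak. Peaks with and without an iPSC counterpart thus lay side by side.

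The cluster next in size, on chromosome 15 from 1744212 to 1773760, had 27 ESC peaks over 29.5 kb but 7 iPSC peaks, which overlapped 8 of the 27. Of 4 clusters with 16 ESC peaks, the 3 longest were counted among the 12 named for most peaks. In these 12 the overlapping share of ESC peaks ran from 12.5 to 72.2%. The lowest share of the 12 belonged to chromosome 3 from 2587378 to 2603533, where 2 of 16 ESC peaks overlapped an iPSC peak. The highest belonged to chromosome 6 from 56877 to 77987, where 13 of 18 did and where ESC peaks were wide, at a median of 595.5 bp. On chromosome 1 from 133260929 to 133282872, 84.2 Mb from the nearer end, 9 of 21 ESC peaks overlapped an iPSC peak. There the 6 ESC peaks at the low-coordinate side had no iPSC peak, while 9 of the other 15 had one. One of its iPSC peaks, 133270598 to 133271057, reached a fold of 4.92, against 2.51 for the ESC peak it overlapped, 133270525 to 133271078.

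**Figure D1:**
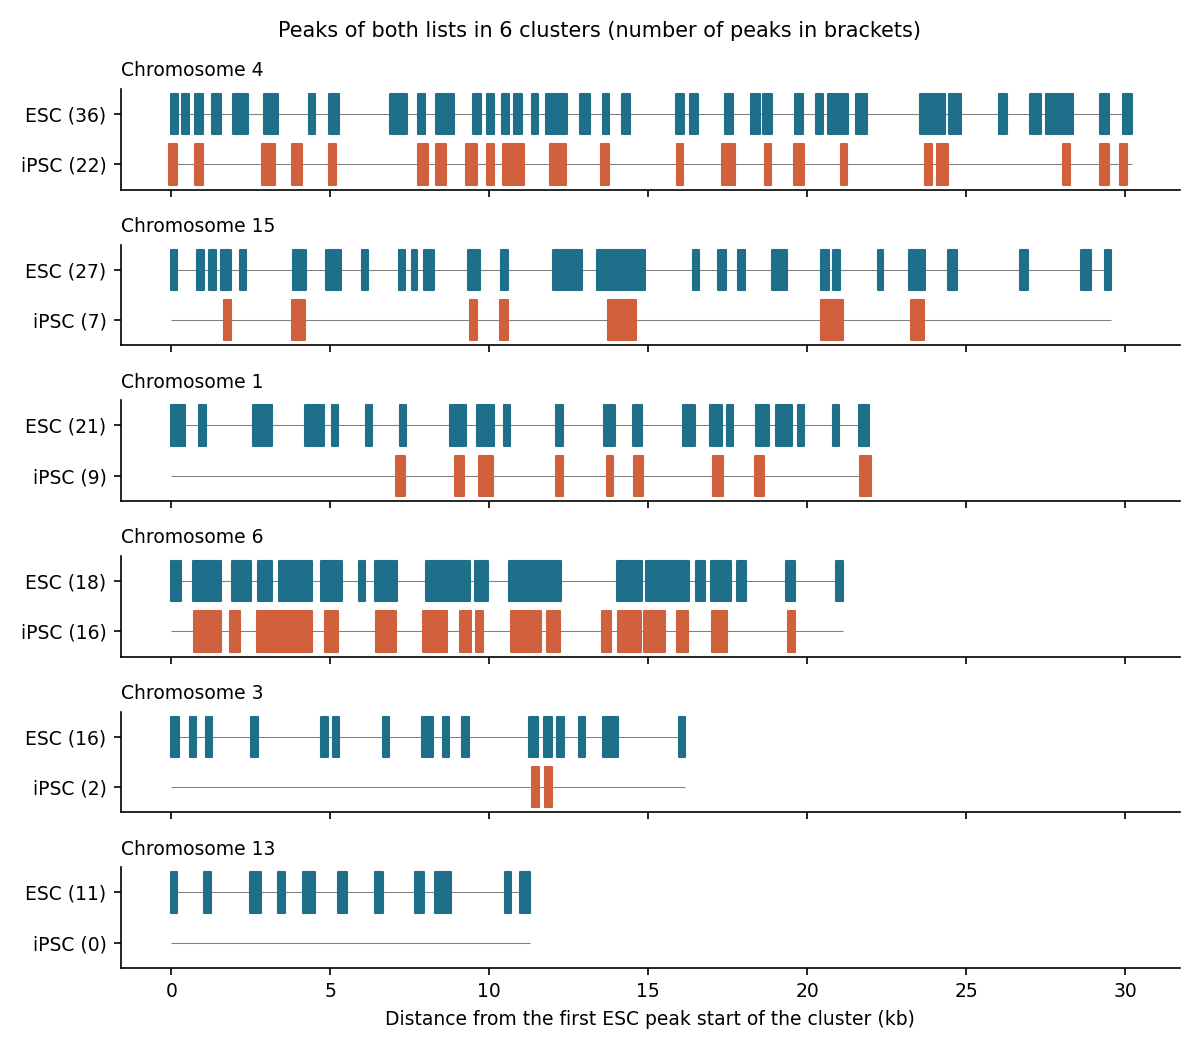
Peaks of both lists in 6 clusters, drawn to scale by distance in kb from the start of the first ESC peak, with ESC peaks in the upper and iPSC peaks in the lower row of each panel and their numbers in brackets. From top to bottom the clusters hold 36, 27, 21, 18, 16 and 11 ESC peaks and 22, 7, 9, 16, 2 and 0 iPSC peaks, and most iPSC peaks sit under an ESC peak.

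Clusters gathered toward the ends of chromosomes. Of the 1195, 772 (64.6%, 61.8 to 67.3%) lay within 5 Mb of an end, against 21.7% (21.5 to 21.9%) of all autosomal ESC peaks and 13.3% (13.0 to 13.5%) of ESC peaks with no neighbour within 2000 bp. An even spread would put 7.71% there. The rule favours places dense in ESC peaks, and the part of peak density in the position of clusters was not tested. The end of a chromosome was taken as position 0 or the end of the last peak of either list. The share of ESC peaks that lay in clusters was 24.7% in the outermost Mb, 17.8% from 1 to 2 Mb, 9.59% from 2 to 5 Mb and 1.51% beyond 20 Mb. Low-coordinate ends held 411 of the 772 and high-coordinate ends 361. Larger clusters lay near ends more often: 56.8% (52.7 to 60.9%) of those with 5 peaks and 80.2% (70.6 to 87.8%) of those with 10 or more.

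**Figure D2:**
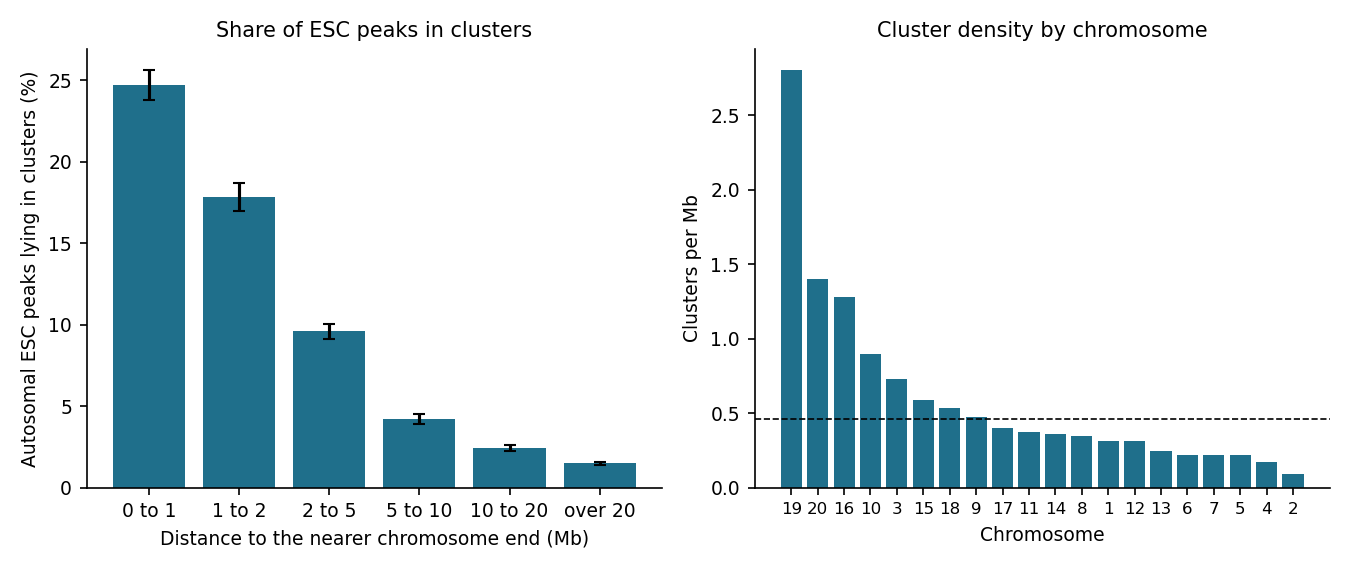
Left, percentage of autosomal ESC peaks lying in clusters by distance in Mb to the nearer chromosome end, with exact 95% intervals; right, clusters per Mb on each autosome, with the value over all autosomes (0.461) as a dashed line. The share falls from 24.7% in the outermost Mb to 1.51% beyond 20 Mb, and chromosome 19 stands at 2.80 clusters per Mb.

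Chromosome 19 had 144 clusters, or 2.80 per Mb, against 0.461 over all autosomes, and 12.9% of its ESC peaks were clustered. Chromosomes 20, 16, 10 and 3 followed with 1.40, 1.28, 0.898 and 0.733 per Mb. These 5 chromosomes held 46.5% of the clusters on 18.2% of the autosomal length and with 27.5% of the ESC peaks. Chromosome 2, with 17 clusters over 188.3 Mb, was at the other extreme with 0.0903 per Mb and 1.24% of its ESC peaks clustered. Chromosomes with more clusters per Mb were also denser in ESC peaks, with a Spearman correlation of 0.899 over the 20 autosomes. Both values are counted from the same ESC peak positions, so the rule itself ties them and nothing is read from the correlation. Chromosome 19 had 142.9 and chromosome 2 had 40.6 ESC peaks per Mb, against 58.5 over all autosomes. Of the 2604 windows of 1 Mb, 402 (15.4%) held a cluster, and 57.2% of all clusters were in the 72 windows that held 5 or more. The fullest was the last Mb of chromosome 16, from 74 to 75 Mb, with 26 clusters, 187 ESC and 80 iPSC peaks. The first Mb of chromosome 19 followed with 22 clusters, 164 ESC and 52 iPSC peaks.

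Some clusters were concentrated far from any end. In all, 296 lay more than 10 Mb from an end. Chromosome 3 held 17 of them from 34 to 35 Mb, with 121 ESC and 49 iPSC peaks, and 8 more in the Mb before, so this interior zone matched the outermost windows of other chromosomes in cluster number. On this chromosome 40.6% of the clusters lay within 5 Mb of an end, compared with 87.8% on chromosome 8. Other windows more than 10 Mb from an end held at most 5 clusters. Clusters also neighboured each other: 64.2% (61.4 to 66.9%) had another within 100 kb, and 22.6% (20.3 to 25.1%) within 10 kb. The rule favours places dense in ESC peaks, and these shares were not set against those of other chains.

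Within clusters, neighbouring summits were a median of 1076 bp apart (interquartile range 688 to 1577 bp, 6385 distances), with 17.7% of distances between 500 and 750 bp, the fullest class of 250 bp. The 2000 bp rule caps these distances. The spread of distances within a cluster, as SD over mean, had a median of 0.452 over the 614 clusters of 6 or more peaks, and it ranged from 0.0537 to 0.984. The most even cluster was on chromosome 15 from 4256687 to 4264825, where 6 ESC summits followed each other at 1547, 1457, 1664, 1633 and 1522 bp. The 4 iPSC peaks there had their summits 231, 1749, 4860 and 6572 bp from the cluster start, next to the ESC summits at 217, 1764, 4885 and 6518 bp. The ESC summits at 3221 and 8040 bp had no iPSC peak. On chromosome 3 from 39022006 to 39027694, 8 ESC summits lay 600 to 878 bp apart, and 1 of the 8 peaks overlapped an iPSC peak. Even spacing occurred in clusters with and without iPSC peaks: the 5 most even ones held 4, 3, 2, 1 and 0. They are the extreme of 614 and were ranked on the value given.

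In the ESC list, clustered peaks were wider and stood on a higher background than other autosomal ESC peaks. Clustered peaks had a median width of 241 bp, with the middle 50% between 199 and 325 bp, while the others had 214 bp, between 190 and 266 bp. The pileup at the summit and the local background, recovered from the deposited fold and p-value, are given as multiples of the genome background, the lowest background in the list (about 12 fragments for ESC and 10.2 for iPSC). The median pileup of clustered peaks was 9.09 times the genome background, against 5.59 for the others. The median local background was 4.33 times, against 2.31. The fold, as their ratio, was lower in clusters, at 2.02 (1.77 to 2.33) against 2.30 (1.96 to 2.71). Which libraries this background was taken from is not stated in the labels. Of the clustered peaks, 65.8% fell in the highest of 4 equal bins of background over all autosomal ESC peaks, and 1.74% in the lowest. Chains of 4 ESC peaks, just outside the rule, were close to chains of 5, with median widths of 233 and 235 bp. Median pileups were 8.17 and 8.51 times and median backgrounds 3.81 and 4.03 times the genome background. These values were graded with chain size, and single peaks had 211 bp, 5.17 and 2.09.

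The highest fold of a cluster was a median of 1.58 times its lowest (1.08 to 2.77), and cluster medians ran from 1.33 to 3.15. Whether folds were more alike within a cluster than among ESC peaks of different clusters was not tested. Among the 3 clusters highest in median fold, chromosome 16 from 45593100 to 45597904 (median fold 3.15) and chromosome 11 from 8039484 to 8044597 (3.10) had backgrounds of 2.61 and 1.60 times the genome background, with 2 and 0 iPSC peaks. The third, on chromosome 15 from 104496770 to 104502216 (2.97), had a background of 1.72 times and 1 iPSC peak. Among the 3 lowest, chromosome 8 from 139438334 to 139442125 (1.33) and chromosome 6 from 3148059 to 3151746 (1.36) had backgrounds of 12.9 and 14.3 times, and all 5 ESC peaks of each overlapped iPSC peaks. The third, on chromosome 15 from 695277 to 702492 (1.41), had a lower background of 6.27 times, and 3 of its 5 ESC peaks overlapped iPSC peaks.

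Most clusters held at least 1 iPSC peak. This was so for 1008 of 1195 (84.4%, 82.2 to 86.4%). Over all 117065 chains, single peaks included, the share was 19.9%, but a longer span has more room for an iPSC peak. By size, it was 53.2% for chains of 3, 70.5% for chains of 4, just outside the rule, and 79.7% for chains of 5. Of the clusters, 187 had 0 iPSC peaks, 308 had 1, 310 had 2, 211 had 3, 94 had 4 and 85 had 5 or more. Counted by peaks, 2439 of 7580 clustered ESC peaks (32.2%, 31.1 to 33.2%) overlapped an iPSC peak by at least 1 bp. The background is 18.1% of all autosomal ESC peaks, and for those outside clusters it was 17.3% (17.1 to 17.5%). The clustered share was the higher one on 20 of 20 autosomes. Per 100 ESC peaks, clusters held 32.4 iPSC peaks and the rest of the autosomes 26.5, and most clustered ESC peaks had no iPSC counterpart.

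The share of overlapping ESC peaks went up with the number of peaks in a chain, below the rule's limit as well as above it. It was 14.5% (14.3 to 14.8%) for single peaks, 20.3% in chains of 2, 25.5% in chains of 3, 29.8% (28.7 to 31.1%) in chains of 4 and 30.9% (29.2 to 32.6%) in chains of 5. It stayed between 30.9 and 32.4% up to 9 peaks, and was 36.2% (32.9 to 39.5%) for 10 to 14 and 41.9% (36.2 to 47.8%) for 15 or more. The last class rests on 15 clusters and 291 peaks. There was no step at 5 peaks.

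**Figure D3:**
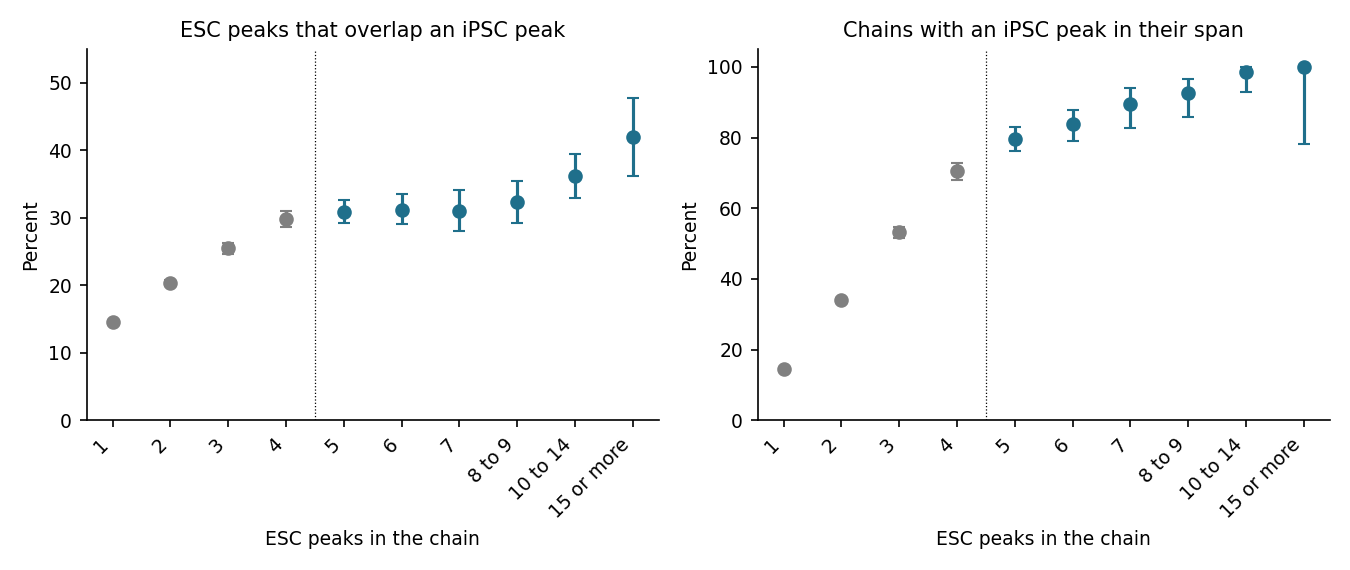
Left, percentage of ESC peaks overlapping an iPSC peak; right, percentage of chains with at least 1 iPSC peak in their span, both by the number of ESC peaks in the chain, with exact 95% intervals. Blue points are the clusters, grey points shorter chains; the left share goes from 14.5% for single peaks to 41.9% at 15 or more, and the right share from 14.5 to 100%.

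The excess of overlapping peaks in clusters was not seen among ESC peaks of like background. In the highest of the 4 background bins, 42.4% (41.1 to 43.8%) of clustered peaks overlapped an iPSC peak, against 48.2% (47.6 to 48.7%) of the others. In the third bin the shares were 14.97% (13.4 to 16.6%) and 17.7% (17.3 to 18.1%). In the second they were 5.69% (3.81 to 8.12%) and 5.83% (5.59 to 6.07%), which the counting error does not separate. In the lowest, 1 of 132 clustered peaks overlapped (0.758%, 0.0192 to 4.15%), against 1.38% of the others. Among the 10% of peaks with the highest background, the clustered share was 57.6% and the other 67.0%, with medians of 6.57 and 6.72 times the genome background. With the other peaks weighted to the background of the clustered ones in 20 bins, their share was 38.5%, above the clustered 32.2%. The background was measured in the same ESC list that chose the clusters.

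**Figure D4:**
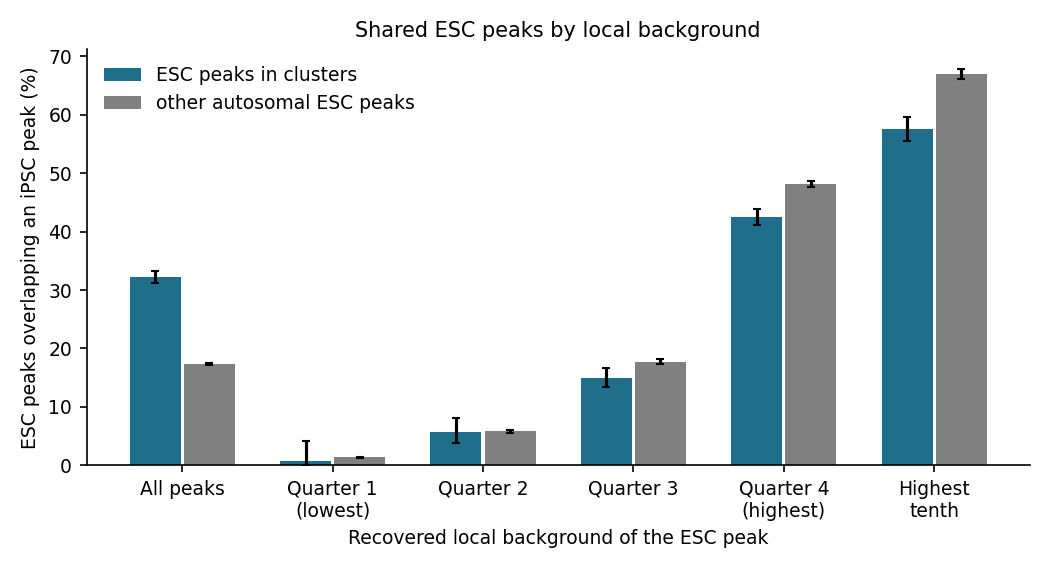
Percentage of ESC peaks overlapping an iPSC peak, for peaks in clusters (blue) and other autosomal ESC peaks (grey), over all peaks, in 4 equal bins of recovered local background and in the highest 10%, with exact 95% intervals. Clustered peaks are higher over all peaks (32.2 against 17.3%) and lower in the highest bin (42.4 against 48.2%).

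Rank and position changed the size of the difference but not its direction. Within each of 5 equal bins of the authors' −log10 q, clustered peaks overlapped more often, by 8.84 percentage points in the lowest bin and 16.6 in the highest. Within 5 Mb of chromosome ends, 33.7% (32.4 to 35.0%) of clustered and 27.1% (26.6 to 27.7%) of other ESC peaks overlapped. Farther inside, the shares were 29.1% (27.3 to 30.9%) and 14.96% (14.8 to 15.2%). Of the 772 clusters near ends 88.2% (85.7 to 90.4%) held an iPSC peak, and of the 423 interior ones 77.3% (73.0 to 81.2%). Median backgrounds of their ESC peaks were 4.58 and 3.88 times the genome background, and the part of background in this difference was not tested.

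Overlapping and non-overlapping ESC peaks of clusters differed in width and height more than in fold. The 2439 overlapping ones had a median width of 296 bp, a pileup of 11.4 times and a local background of 5.52 times the genome background. The others had 222 bp, 8.17 and 3.96. Their median folds were 2.00 and 2.04. Outside clusters, ESC peaks that paired singly with an iPSC peak had medians of 253 bp, 9.43 and 4.33, and a fold of 2.09. All ESC peaks outside clusters had 214 bp, 5.59 and 2.31, and a fold of 2.30. The difference in width and height is thus not particular to clusters. A wider peak also has more room for an overlap of 1 bp. Inner peaks of a cluster overlapped an iPSC peak somewhat more often than its outermost peaks, at 33.5% (32.2 to 34.8%) of 5190 against 29.4% (27.6 to 31.2%) of 2390, with backgrounds of 4.48 and 4.18 times.

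Most iPSC peaks inside clusters touched an ESC peak. Of the 2457, 2381 (96.9%) did so, and the 76 others lay in the gaps. The background is 66.5% of all autosomal iPSC peaks, but the rule packs the spans with ESC peaks and so sets part of this difference, from which nothing is read. In 4 clusters all iPSC peaks were in gaps. Single iPSC peaks that bridged 2 or more ESC peaks numbered 65 inside clusters, where the rule places ESC peaks close together. iPSC peaks covered 10.2% of the spans, against 0.497% of the autosomes.

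Around the clusters the iPSC list followed the ESC list. Inside there were 0.985 ESC and 0.318 iPSC summits per kb. From 0 to 2 kb beyond the edges, where the rule allows no ESC peak start, the iPSC density was 0.0283 per kb (135 summits). From 2 to 10 kb it was 0.113 per kb for iPSC and 0.279 for ESC, and from 10 to 20 kb 0.107 and 0.265. These flanks were far denser than the autosomes as a whole, at 0.0157 per kb for iPSC and 0.0585 for ESC. Pooled over the 1195 clusters, a dense core was thus flanked from 2 to 20 kb by sequence richer in peaks of both lists than the autosomal mean. Flanks were not set against the density near chromosome ends, where 64.6% of clusters lay within 5 Mb, so the part of position was not tested. Neighbouring clusters fall into each other's flanks and are counted there.

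**Figure D5:**
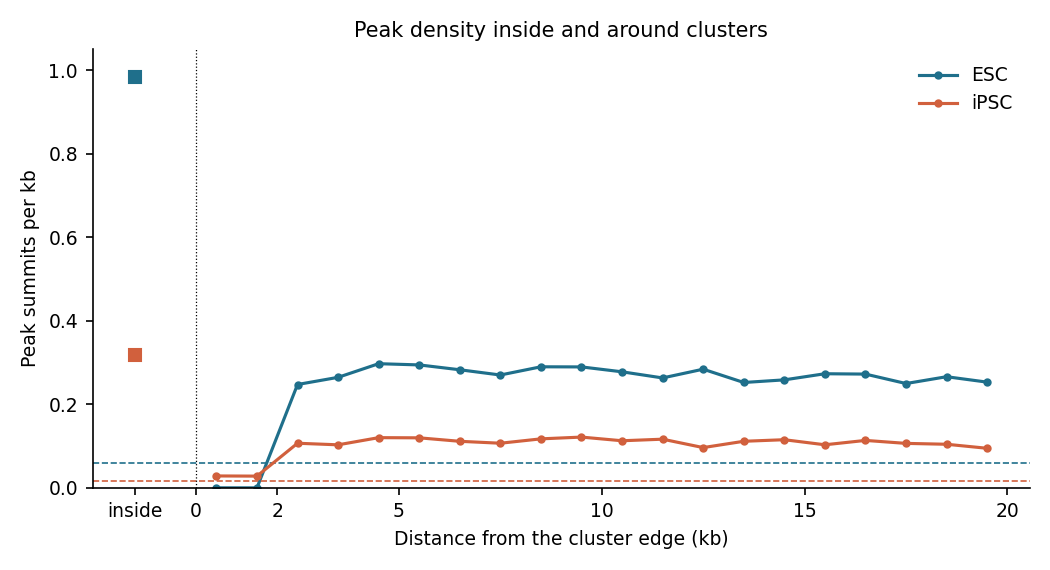
Peak summits per kb inside the 1195 clusters (squares) and in bins of 1 kb up to 20 kb beyond both edges (points), for ESC (blue) and iPSC (orange), with the density over all autosomes as dashed lines. The empty 2 kb beside the edge is set by the rule for ESC; iPSC falls to 0.0283 per kb there and both lists stay above their autosomal density out to 20 kb.

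At sites that paired singly, 1 ESC with 1 iPSC peak, the iPSC peak mostly had the higher fold, on a lower pileup and a lower background, in clusters as over all autosomes. In the 2282 pairs of clusters the fold was higher in iPSC at 76.8% (74.99 to 78.5%), against a background of 77.0% over all autosomal pairs, and the median folds were 2.01 (ESC) and 2.40 (iPSC). Relative to the genome background, iPSC had the higher pileup at 1.88% (1.37 to 2.53%) of these pairs, against 2.51% over all. The local background was higher in iPSC at 1.75% (1.26 to 2.38%), against 2.98%. Summits of a pair were a median of 21 bp apart in clusters and 19 bp outside. In width, the iPSC peak was the wider at 35.9% (33.9 to 37.9%) of clustered pairs, against 45.5% of all pairs. Pairs in shorter chains and pairs of like ESC width were not compared, so this is not shown to be particular to clusters. Median widths were 257 bp for iPSC and 296 bp for ESC in clusters, and 240 and 253 bp in the 23978 pairs outside. Sites called in a single list have no pair, and each fold is relative to its own list's background.

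At the level of whole clusters, 7 had every ESC peak overlapped, 284 (23.8%, 21.4 to 26.3%) at least 50% of them, and 191 none. The 7 full ones had 5 or 6 ESC peaks, 1 to 6 iPSC peaks and median backgrounds of 6.05 to 14.3 times the genome background. On chromosome 5 from 1186396 to 1192233, 6 iPSC peaks lay on the 6 ESC peaks singly. Their folds in order were 2.30, 2.20, 2.83, 2.10, 2.21 and 2.49 for iPSC and 1.39, 1.72, 1.81, 1.28, 1.72 and 1.58 for ESC, so iPSC was the higher at each. On chromosome 12 from 119424224 to 119427322, a single iPSC peak of 3074 bp with a fold of 3.84 covered all 5 ESC peaks, whose folds were 1.40 to 2.23. On chromosome 6 from 3148059 to 3151746 an iPSC peak of 3257 bp covered 4 of 5 ESC peaks. In both clusters several short ESC peaks lay under 1 long iPSC peak.

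The most fully enriched cluster in the ESC list, on chromosome 12 from 126741654 to 126745773, had 5 ESC peaks filling 80.1% and 4 iPSC peaks filling 86.5% of its span. The next, on chromosome 14 from 448398 to 450654, had 5 ESC peaks filling 73.1%, with folds of 2.07, 2.38, 1.59, 2.09 and 1.72, and 0 iPSC peaks. Its median background of 5.82 times the genome background was close to that of the former, at 6.05. Close spacing in ESC was thus found with and without iPSC peaks. iPSC peaks were at least as many as ESC peaks in 9 clusters. Among these the one on chromosome 19 from 4955259 to 4964263 held most, with 8 of each and 7 ESC peaks overlapped.

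The 187 clusters without an iPSC peak were smaller, less raised in background and farther from chromosome ends than the 1008 with one. Their medians were 5 against 6 ESC peaks, 3.36 against 4.48 times the genome background, and 5.36 against 2.34 Mb from an end. Their median fold was 2.14 against 2.01. In 4 equal bins of clusters by median background, 65.2% (59.5 to 70.6%) of the lowest and 94.6% (91.5 to 96.9%) of the highest held an iPSC peak. The largest without one was on chromosome 13 from 89267863 to 89279144, the only cluster of 10 or more ESC peaks with 0 iPSC peaks. Its 11 ESC peaks had folds of 1.63 to 2.94 with a median of 2.12, summits 596 to 2158 bp apart and a median background of 3.06. Next in size were 8 clusters of 8 ESC peaks, the 5 longest of them on chromosomes 16, 1, 3, 19 and 15. Of these 5, chromosome 1 from 132095729 to 132104021 had a background of 10.3 times the genome background and folds of 1.22 to 1.88, so a high background did not always go with an iPSC peak.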

How the data were processed

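The labels describe 24 MeDIP and input libraries, and the deposited data used here are 2 peak lists, 1 per cell type. The submitters' processing notes name MACS2 and deepTools beside Picard 2.239 and SAMtools 1.10. The aligner, genome build, MACS2 version, options and control, and how libraries were combined, were not given in the sources used here. The authors' fold is a ratio of the pileup at the summit to the local background. The deposited −log10 p and −log10 q values belong to each list alone, with a lowest −log10 q of 1.30 in both. The deposited score, 10 times the −log10 q without decimals, was used in no result. Depth per library is unknown.

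Pileup and background were recovered from fold and p, with p as a Poisson tail and 1 added to pileup and background before the fold is formed. The recovery was tested on simulated peaks made with the same formulas, of which 100% (ESC) and 99.97% (iPSC) were recovered. The iPSC pileup carried a fitted factor of 0.690. Overlap meant at least 1 bp.

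The members and the rules were chosen with earlier results of these data known. Named clusters were, by rule, the 12 with most ESC peaks, the 5 longest, the 5 most filled, the 6 largest without iPSC peaks, the 6 with most iPSC peaks among those with at least as many iPSC as ESC peaks, the 3 highest and 3 lowest in median fold, and the 5 most evenly spaced of those with 6 or more peaks, with ties in number settled by the longer span. Alternatives changed the gap, the number of peaks, the threshold, the overlap and the end zone. No sequence is printed, as no genome of the build was used here. Software was scipy 1.17.1, pandas 2.3.3, numpy 2.4.6, matplotlib 3.10.9 and Python 3.11.15.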

Additional observations from a re-analysis of the deposited data

Results flagged for a closer look

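Chains of 5 or more ESC peaks also occurred on sequences outside the autosomes, which the clusters above leave out. Chromosome X held 26 of them, with 154 ESC peaks (3.49% of its 4412) and at most 10 in one chain. Of these, 8 (30.8%, exact 95% interval 14.3 to 51.8%) held an iPSC peak, with 9.09 iPSC peaks per 100 ESC peaks, against 84.4% and 32.4 for the autosomal clusters. Unplaced scaffolds held 102, with 655 ESC peaks (6.00% of 10915). Of these, 83 (81.4%, 72.4 to 88.4%) held an iPSC peak, with 38.3 iPSC peaks per 100 ESC peaks. The same values over all ESC peaks or chains of X and of the scaffolds were not computed. The values therefore do not tell a trait of these clusters from one of the whole sequence. The difference between X and the autosomes was not tested.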

How the results depend on the processing

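All values rest on 1 list per cell type, and the depth of the libraries behind them is unknown. The number of clusters was 264 and 2202 with gaps of at most 1000 and 3000 bp, 2614 and 330 with at least 4 and 7 ESC peaks, and 528 at a −log10 q of at least 5 in both lists. With X and unplaced scaffolds it was 1323. The share holding an iPSC peak was 88.3% at 1000 bp, 76.9% at 4 peaks and 93.0% at 7. The share of clustered ESC peaks overlapping an iPSC peak was 36.7% and 30.6% at 1000 and 3000 bp, 34% at 7 peaks, 31.1% at a −log10 q of 5, 27.5% for overlap of 50% of both peaks and 30.6% for iPSC summits inside ESC peaks. Among clustered ESC peaks kept in an ESC list cut to the iPSC length it was 44.3%. The share for other ESC peaks kept by this cut was not computed. In the highest of 5 equal bins of −log10 q, 47.1% of clustered and 30.5% of other ESC peaks overlapped. Over all ranks the shares were 32.2% and 17.3%, so high rank went with more overlap in both groups. iPSC peaks per 100 ESC peaks were 35.8 at 1000 bp, 34.2 at 7 peaks and 88.7 at the iPSC length, where fewer ESC peaks are counted. The share within 5 Mb of an end was 73.5% and 59.2% at 1000 and 3000 bp and 57.0% and 75.8% at 4 and 7 peaks; it was 43.5% within 2 Mb and 75.2% within 10 Mb. The other alternatives for these results moved them by less than their counting intervals.

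The difference of 14.9 percentage points between clustered and other ESC peaks in overlap with iPSC peaks was set against strata chosen after seeing the data. In the lowest 2 of 4 background bins it was −0.622 and −0.137 points, which counting error does not separate from no difference. It reversed to −2.76 and −5.76 points in the upper 2 bins, to −9.38 points in the highest 10%, and to −6.36 points with the others weighted to the clustered background. It was 8.84, 13.5, 11.9 and 16.6 points in bins 1, 2, 3 and 5 of 5 equal bins of −log10 q, counted from the lowest, and 6.53 points within 5 Mb of an end. These strata describe the difference, and its cause was not tested. No paired analysis was possible because both lists hold a single value per peak for a whole cell type; leaving out replicates was likewise not possible.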

Other observations

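The same chaining applied to the iPSC list gave 77 autosomal clusters with 440 iPSC peaks, the largest of 16. Of these, 51 (66.2%, exact 95% interval 54.6 to 76.6%) overlapped an ESC cluster, and 48 of the 1195 ESC clusters (4.02%, 2.98 to 5.29%) overlapped an iPSC cluster. The other 26 iPSC clusters lay outside the ESC clusters. The largest of them, on chromosome 14 from 866709 to 878029, held 10 iPSC peaks over 11321 bp, of which they covered 7327 bp, and 2 ESC peaks. Its values were known when it was chosen for naming.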
